A study of Mus musculus with 18 samples.

Results

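Complex I, the NADH:ubiquinone oxidoreductase, is the entry point of electrons from NADH into the mitochondrial respiratory chain. It is an L-shaped assembly with a matrix arm, which carries the flavin and iron-sulphur clusters, and a membrane arm, which pumps protons. Most of its subunits are encoded in the nucleus under symbols that begin with Nduf, a few are encoded in mitochondrial DNA, and dedicated assembly factors, many with the prefix Ndufaf, put the modules together without staying in the finished enzyme. The genes described here were chosen as all symbols that begin with Nduf and average at least 50 normalised reads in each of 3 expression tables. The rule kept 44 of 45 such symbols among 23420 symbols in each table: 35 subunits of complex I, 7 Ndufaf assembly factors, and Ndufa4 and Ndufa4l2, whose products are not complex I subunits. Ndufs5 was listed at 0 in every sample and was left out, and the lowest mean kept was 87.3, for Ndufa4l2 in the Cox10 table. The mitochondrially encoded subunits were not analysed here.

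Whole lungs were collected from mouse embryos at 14.5 dpc (days post coitus) in 3 lines. Deficient lungs carried Rptorf/f, Tfamf/f or Cox10f/f, that is, 2 floxed alleles of Rptor (a component of mTORC1, the kinase complex that couples nutrients to growth), Tfam (the transcription factor of mitochondrial DNA) or Cox10 (a farnesyltransferase needed to make the haem of complex IV). Controls of each line carried Rptorf/+, Tfamf/+ or Cox10f/+, and all 6 groups, controls included, also carried ShhCre/+, so a control had 1 floxed allele and the recombinase. ShhCre acts in the lung epithelium, so the mesenchyme, vessels and blood cells of a deficient lung kept the gene, and the RNA of all these cells was measured together. Each group had 3 samples, 18 in all, and because nothing in the labels ties a sample to a single embryo, the p-values measure the spread between these samples. In such bulk samples, fewer cells of a type and less RNA per cell cannot be told apart.

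Values are normalised reads per gene, and sample totals ran from 27727200 to 29611100. Values by sample are listed for replicates 1, 2 and 3 in that order. A difference below is deficient minus control on the log2(value + 1) scale, with its standard error (SE) from limma, and a gene passed the test at a Benjamini-Hochberg adjusted p under 0.05 over all genes tested in that line. Gene-level reads of the deleted gene overlapped between the groups in each line: the difference was -0.066 for Rptor, -0.12 for Tfam and -0.0055 for Cox10, and none passed the test. These reads are summed over a gene and include cells that kept it, so they do not measure the deletion. The authors reported lower RPTOR, TFAM and COX10 protein in purified epithelial cells of the deficient lungs. Summed epithelial markers, 12 genes such as Epcam and Cdh1, were present in every sample, between 14054 and 34335 normalised reads.

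The 4 members with the largest falls in Rptor-deficient lungs were Ndufaf4, Ndufb4, Ndufa11 and Ndufab1, and their upstream sequences are shown because nuclear respiratory genes are known to carry sites for the transcription factor NRF1. RefSeq promoter windows (GRCm38.p6, 250 bases before to 50 after the start) matched 38 of the 44 members by symbol. Ndufa2, Ndufa4l2, Ndufaf6, Ndufb9 and Ndufs1 were among those with no entry. The stretches run 5′ to 3′ on the gene's strand over the last 150 bases that lie before both the RefSeq start and the GENCODE gene, and capitals mark matches to the NRF1 letters GCGCANGCG on either strand.
Ndufaf4, chr4:24897933-24898082, plus strand: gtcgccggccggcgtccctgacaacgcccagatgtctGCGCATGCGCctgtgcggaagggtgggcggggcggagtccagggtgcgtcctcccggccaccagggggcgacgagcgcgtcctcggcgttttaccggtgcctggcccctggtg
Ndufb4, chr16:37654454-37654603, minus strand: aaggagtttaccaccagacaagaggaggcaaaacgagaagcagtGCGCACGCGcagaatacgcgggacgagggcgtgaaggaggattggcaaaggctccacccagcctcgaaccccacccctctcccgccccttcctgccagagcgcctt
Ndufa11, chr17:56717612-56717761, plus strand: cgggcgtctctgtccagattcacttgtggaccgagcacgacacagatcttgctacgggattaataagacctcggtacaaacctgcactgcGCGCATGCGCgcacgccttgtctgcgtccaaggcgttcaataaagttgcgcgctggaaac
Ndufab1, chr7:122101887-122102036, minus strand: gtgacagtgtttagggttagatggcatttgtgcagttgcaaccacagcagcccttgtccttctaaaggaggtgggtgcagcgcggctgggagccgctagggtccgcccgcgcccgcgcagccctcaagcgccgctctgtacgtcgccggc
In Ndufaf4 and Ndufa11 the capitals cover 2 overlapping matches, 1 on each strand, and no match was found in the Ndufab1 stretch. Within the whole windows, the NRF1 letters were present for 9 of 38 members (23.7%), 12 of 30 subunit genes of complexes II to V (40%), 14% of the 10890 genes tested in the Rptor line that have a window, and 7.03% of all 27025 genes with a window. Of the 11 members lower in Rptor-deficient lungs, 10 had a window and 4 of these held the letters (Ndufa11, Ndufaf4, Ndufb4 and Ndufs6), against 5 of the other 28. The letters AAGATGGCG of YY1, another factor of housekeeping promoters, were found for 5 members (13.2%), in each of them after the transcription start, and for 3.16% of the tested genes. CCGGAAGT of the ETS factors was found for Ndufs3 alone (2.63% of members against 8.15%), and TCAAGGTCA of the oestrogen-related receptors for none, against 0.349%. A match is a run of letters and not a measured binding site. The level of Nrf1 itself differed by -0.091 ± 0.061 (SE) between Rptor-deficient and control lungs (adjusted p = 0.281, limma).

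Loss of Rptor from the epithelium was accompanied by lower levels of a minority of complex I genes. In Rptor-deficient lungs 11 of the 44 members fell and Ndufa4l2 rose. Of all 14940 genes tested in this line, 18.2% fell and 16.6% rose. The median difference over the members was -0.14 against 0.0083 over all genes, and 36 of 44 members had a negative sign. By role, 2 of 7 core subunits, 3 of 10 accessory subunits of the matrix arm, 4 of 18 accessory subunits of the membrane arm and 1 of 7 Ndufaf factors fell, and Ndufa4 was the remaining gene that fell. The 3 deficient samples lay below all 3 controls for 17 members (26% of all genes). They lay above all controls for 2 members, Ndufa4l2 among them (24.3% of all genes). Summed over the 35 subunits, the controls held 74907, 70319 and 75079.6 normalised reads and the deficient lungs 66960.1, 67436 and 69254. The sums did not overlap.

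The largest fall was that of an assembly factor. Ndufaf4, which with Ndufaf3 helps to build the quinone-binding module early in assembly, was at 879.6, 967 and 907 normalised reads in controls and at 524, 664 and 608 in Rptor-deficient lungs. All deficient samples were below all controls, and the difference was -0.62 ± 0.10 (SE, n = 3 per group, adjusted p = 0.00206, limma). The other 6 Ndufaf factors did not pass. Their differences ran from -0.23 for Ndufaf2 (95% interval -0.45 to -0.019), a factor that holds the place later taken by Ndufa12, to 0.12 for Ndufaf7 (-0.083 to 0.32), a methyltransferase. Ndufaf3, the partner of Ndufaf4, differed by -0.21 (-0.47 to 0.051), so a fall as large as the point estimate of Ndufaf4 lay outside its interval.

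**Figure D1:**
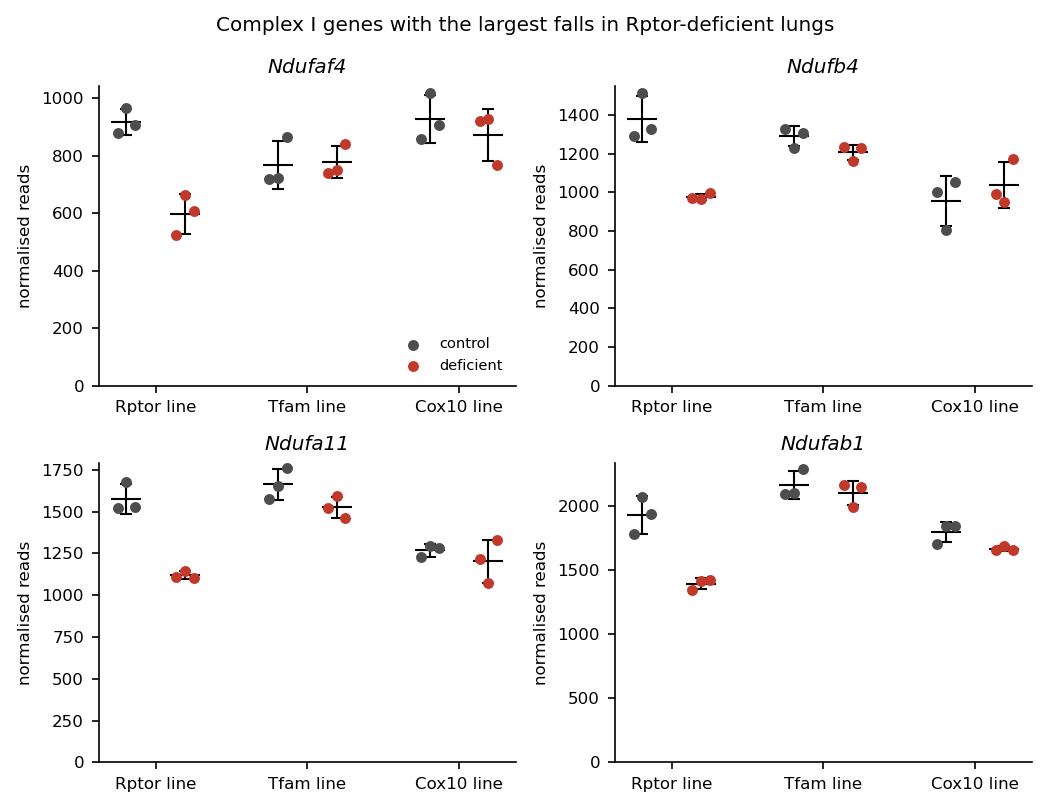
Normalised reads (y axis, from 0) of Ndufaf4, Ndufb4, Ndufa11 and Ndufab1 in each sample of the Rptor, Tfam and Cox10 lines, controls in grey and deficient lungs in red, with black bars for the mean ± SD of 3 samples. In the Rptor line every deficient sample lies below every control for all 4 genes, and in the Tfam line the groups overlap for all 4.

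Among the accessory subunits of the membrane arm, Ndufb4 and Ndufa11 fell most. Ndufb4, a subunit of the outer part of the arm, was at 1292, 1514 and 1329 in controls and at 969, 967 and 995 in deficient lungs. The deficient samples lay close together and well under the lowest control, a difference of -0.49 ± 0.075 (SE, adjusted p = 0.00173). Ndufa11, which sits where complex I meets complex III in the supercomplex, was at 1519, 1677 and 1527 in controls and 1108, 1147 and 1105 in deficient lungs. Its difference was -0.49 ± 0.064 (SE) and its adjusted p of 0.000915 the lowest of the 44. Ndufb7, a subunit facing the intermembrane space, went from 1993 ± 140.2 to 1590.4 ± 116 (SD, n = 3; adjusted p = 0.0125, limma), and Ndufb8 from 3548 ± 80.2 to 3105 ± 46.8 (adjusted p = 0.0165, limma). The other 14 subunits of this arm did not pass, with differences from -0.22 for Ndufb6 (95% interval -0.39 to -0.04) to 0.015 for Ndufa3 (-0.20 to 0.23). The interval of Ndufa3 did not reach the estimate of Ndufb4, but these are the ends of the range in this arm. Differences between subunits were not tested.

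In the matrix arm the accessory subunits Ndufab1, Ndufs4 and Ndufs6 fell. Ndufab1, the mitochondrial acyl carrier protein, which also serves fatty acid synthesis, was at 1778, 2067 and 1938 in controls and 1345, 1413 and 1420.0 in deficient lungs (-0.47 ± 0.069 SE, adjusted p = 0.0016). Ndufs4, a subunit whose loss in mice gives a Leigh-like encephalopathy, was at 1424, 1643 and 1497 in controls against 1114, 1118 and 1336 (-0.36 ± 0.09 SE, adjusted p = 0.0161). Its highest deficient sample came close to the lowest control without reaching it. Ndufs6, a zinc-binding subunit, was at 1386, 1168 and 1313 in controls against 975, 1014 and 1090.0 (-0.33 ± 0.082 SE, adjusted p = 0.0158). Other subunits of this arm went the opposite way without passing: Ndufv3 differed by 0.22 (95% interval 0.014 to 0.43, adjusted p = 0.0913) and Ndufa6, which binds the acyl carrier protein, by 0.20 (-0.026 to 0.42). With the replicate number as a block, which in this line pairs the samples, Ndufv3 passed as higher (adjusted p = 0.0367). Ndufa6 passed as higher when GC content and length trends were removed as well, and in the unblocked fit without Rptor control 1.

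The 7 nuclear core subunits, those shared with the bacterial enzyme that carry out electron transfer, were split. Ndufs1, the large iron-sulphur subunit, was at 3269, 3316 and 3460.5 in Rptor controls and 2987, 2823 and 2809 in deficient lungs (-0.22 ± 0.053 SE, adjusted p = 0.0132). Ndufs8, an iron-sulphur subunit on the way to the quinone, was at 1710.3, 1721 and 1909.8 in controls against 1324, 1427 and 1495 (-0.33 ± 0.072 SE, adjusted p = 0.00861). These were the core subunits that fell. Ndufv2, an iron-sulphur subunit of the NADH-oxidising module, was at 2985, 2844 and 2881 in controls against 2633, 2606 and 2656 and missed the threshold (-0.14 ± 0.05 SE, adjusted p = 0.0555), though it passed when all 18 samples shared a fit. Ndufs3, a subunit of the quinone module, was at 2020.5, 1917 and 1998 in controls against 1803, 1808 and 1793 (-0.14 ± 0.053 SE, adjusted p = 0.0784). For both, all deficient samples lay under all controls by a small margin. Ndufv1, which binds NADH and the flavin, was at 3582, 3415 and 3409 in controls against 3442, 3475 and 3362, with an interval of -0.13 to 0.10 around its difference of -0.018. Ndufs7, which lies at the quinone site, was at 1239, 1056 and 1287 in controls against 1205, 1246 and 1152, a difference of 0.013 (-0.18 to 0.21). For Ndufv1 and Ndufs7 a fall of the size seen in Ndufs1 lay outside the 95% intervals.

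**Figure D2:**
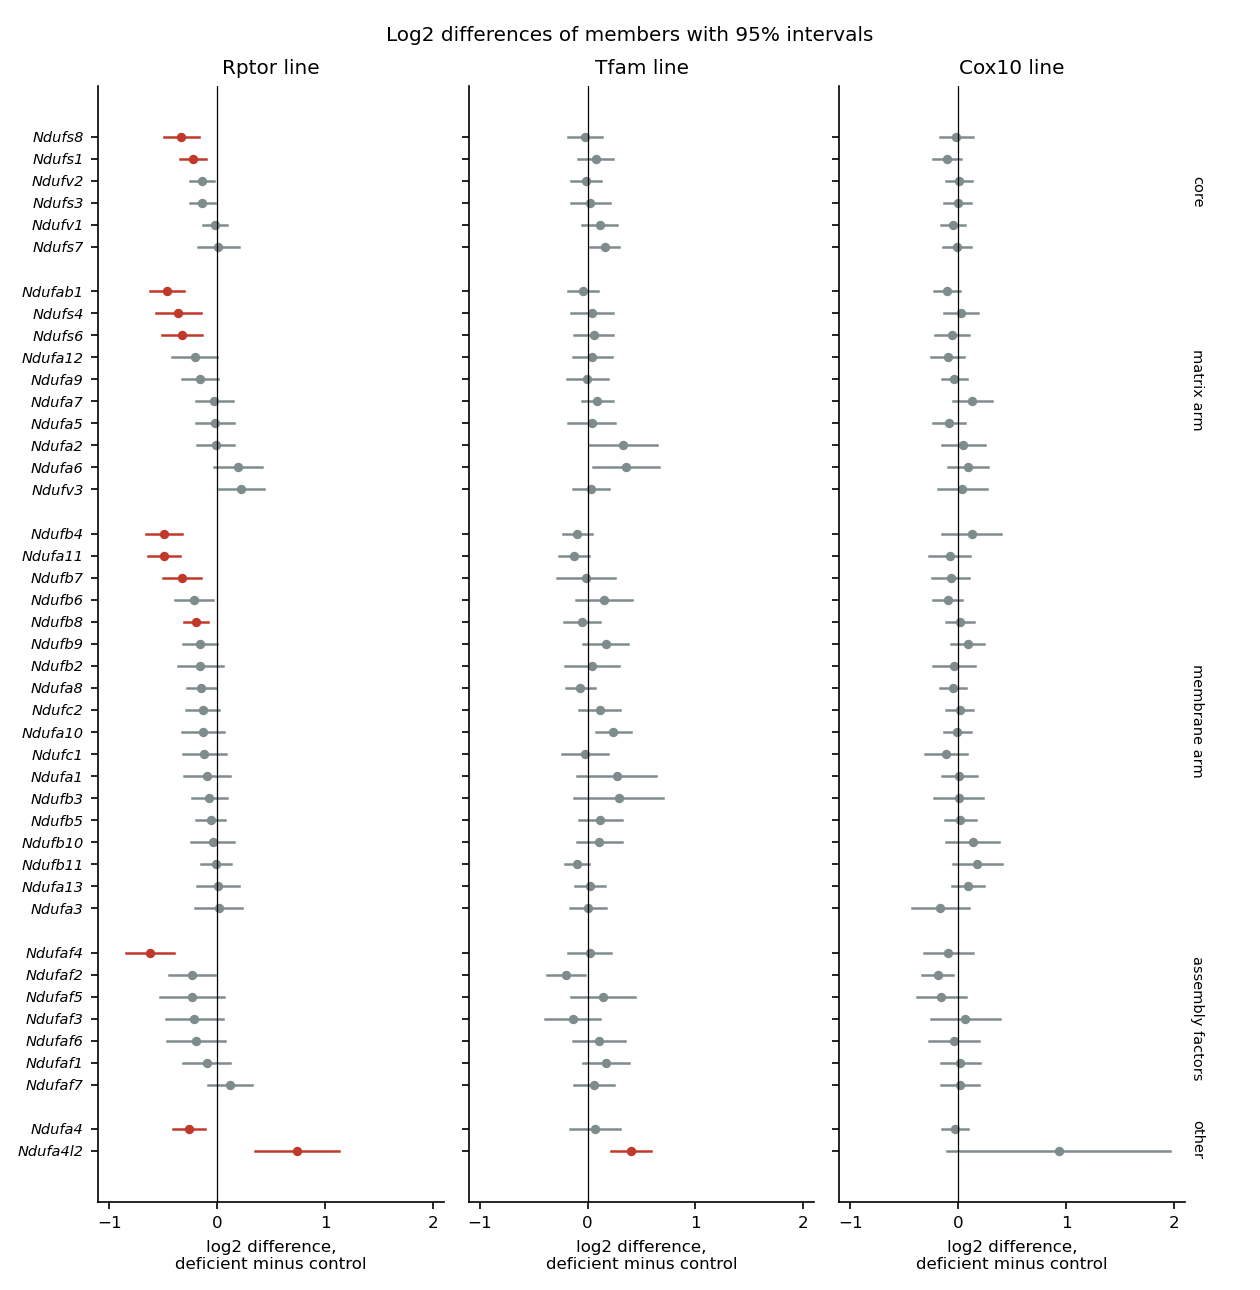
Log2 differences between deficient and control lungs (x axis) of 43 of the 44 members (rows, grouped by role) in the Rptor, Tfam and Cox10 lines. Points are limma estimates, bars are 95% intervals, and red marks an adjusted p under 0.05: 12 members for Rptor, 1 for Tfam and 0 for Cox10.

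Of the 11 falls in the Rptor line, 5 (Ndufa11, Ndufab1, Ndufaf4, Ndufb4 and Ndufs8) passed whichever of the 6 samples was left out, as did the rise of Ndufa4l2. Without Rptor control 3 the count of members past the threshold dropped from 12 to 7, and Ndufa4, Ndufb7, Ndufb8, Ndufs1 and Ndufs6 missed it. In that fit 12.8% of all genes fell and 12.3% rose. Ndufs4 missed it without control 2 (adjusted p = 0.0653) and without deficient 2, and Ndufb8 and Ndufs6 missed it without control 1.

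Markers of the lung's cell types differed between the same groups, some by more than the complex I genes. In the Rptor line 11 of 12 epithelial markers fell, with a median of -0.97, and their summed level was 33264 to 34335 normalised reads in controls and 14054 to 18187 in deficient lungs. At the same time 7 of 10 mesenchymal, 7 of 8 endothelial and 5 of 5 leukocyte markers rose, and none of 4 erythroid or 5 cardiac muscle markers passed. The summed mesenchymal markers were at 195018 to 226139 in controls and 393670.0 to 423813 in deficient lungs, the endothelial markers at 32786 to 34701 and 41934 to 46740.4, and the leukocyte markers at 2068 to 2100.0 and 3205 to 3949.7. The complex I mRNAs come from all these cells, and the part of this shift in their differences was not tested. For genes under 1000 bases, the median deviation from the control mean was -0.046 to -0.020 in the deficient samples and -0.018 to 0.016 in the controls. For the members, whose median transcript length is 825.5 bases, it was -0.15 to -0.080 and -0.075 to 0.033, so on both measures control 2 lay close to deficient 3. With GC content and length trends removed, the same 11 members fell, and the members' median was -0.10.

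Other genes of the respiratory chain fell in the same lungs. Of 38 subunit genes of complexes II to V, 28 fell and none rose (background as above, 18.2% and 16.6%), with a median of -0.24, against 9 of 35 and -0.13 for complex I. The fallen subunits were 2 of 4 of complex II, 7 of 9 of complex III, 6 of 10 of complex IV and 13 of 15 of complex V. Cox5a, a complex IV subunit, differed by -0.63 ± 0.055 (SE, adjusted p = 0.000151, limma), and Uqcr10 of complex III by -0.37 ± 0.059 (adjusted p = 0.00215, limma). No test was made between the lists, whose genes are not independent. Among 13 assembly factors of complex I without the Ndufaf prefix, Acad9, Ecsit, Tmem126a, Foxred1, Aifm1 and Chchd4 fell, with differences from -0.35 for Ecsit to -0.20 for Aifm1. Tmem126b, which works in 1 complex with Acad9, Ecsit and Ndufaf1, rose by 0.28 ± 0.092 (adjusted p = 0.0468, limma). Thus genes of a single assembly complex differed in opposite directions, while Ndufaf1 was at -0.095 (95% interval -0.31 to 0.12). Of 12 regulators of respiratory genes, Esrra (0.28) and Esrrg (1.01) rose and Pprc1, a coactivator of the PGC-1 family, fell (-0.51 ± 0.053 SE, adjusted p = 0.000335, limma).

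**Figure D3:**
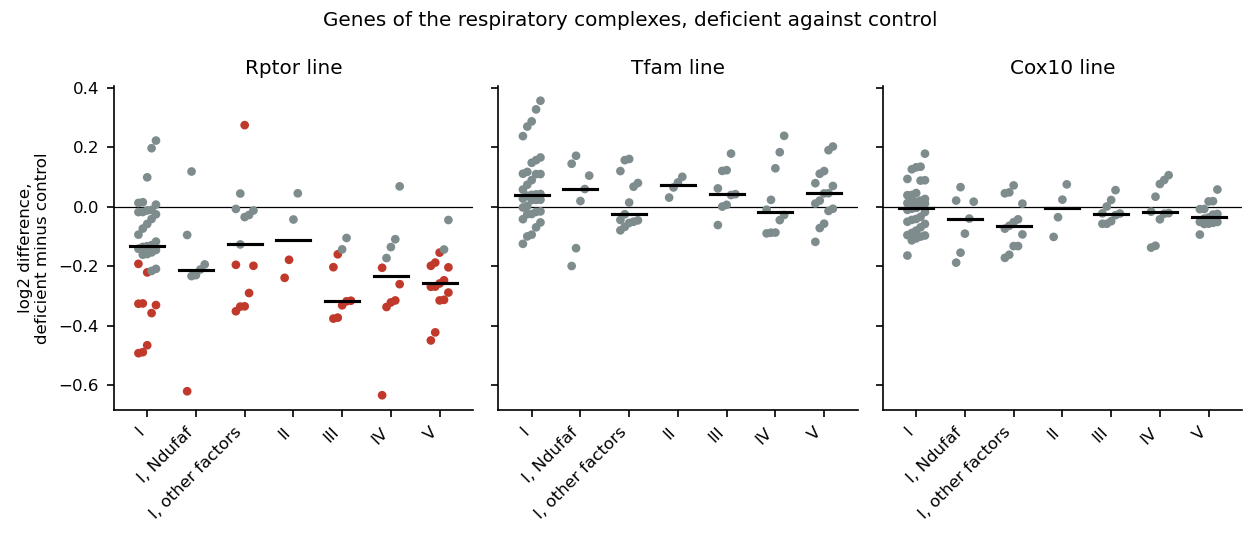
Log2 differences between deficient and control lungs (y axis) of 35 complex I subunits, 7 Ndufaf factors, 13 other complex I assembly factors and the subunits of complexes II (4), III (9), IV (10) and V (15) in each line. Each point is a gene, red at an adjusted p under 0.05, and black lines are medians: in the Rptor line -0.13 for complex I subunits, -0.32 for complex III and -0.26 for complex V.

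Few members passed the test after loss of Tfam or Cox10. In Tfam-deficient lungs Ndufa4l2 rose and no other member passed, and in Cox10-deficient lungs no member passed. Over all genes tested, 2.03% rose and 2.63% fell in the Tfam line, and 0.141% rose and 0.335% fell in the Cox10 line. At an unadjusted p under 0.05 there were 20 members for Rptor, 6 for Tfam and 1, Ndufaf2, for Cox10, where 45.6%, 17.4% and 13% of all genes tested had such a p. These counts were at or below that share of 44. The median over members was 0.042 for Tfam and -0.0051 for Cox10, and its sign changed when some samples were left out. Groups did not overlap for 2 members with lower levels (Ndufb11 and Ndufaf2) and 2 with higher levels (Ndufa4l2 and Ndufs7) in the Tfam line, against 11.8% and 10.9% of all genes. In the Cox10 line they did not overlap for 4 lower (Ndufs1, Ndufab1, Ndufaf2 and Ndufaf5) and 1 higher (Ndufa4l2), against 10.8% and 10.6%. The subunits summed to 59914, 58692 and 68354 normalised reads in Tfam controls and 64466, 63354 and 65389.7 in Tfam-deficient lungs, and to 69209.7, 68242 and 70847 against 67978, 67359 and 73774 in the Cox10 line. In both lines the groups overlapped. The 38 subunits of complexes II to V likewise held no gene past the threshold in either line, with 2 and 3 genes at an unadjusted p under 0.05 (17.4% and 13% of all genes).

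Ndufaf2 had a negative difference with an unadjusted p under 0.05 in each of the 3 lines, and it did not pass after adjustment in the fit of any line by itself. It passed in the Rptor line when all 18 samples shared a fit. It was at 781, 666 and 758 in Rptor controls against 577, 679 and 619 in deficient lungs, where the highest deficient sample overlapped the lowest control (-0.23 ± 0.094 SE, adjusted p = 0.0863). With Tfam floxed it was at 534, 545 and 602 in controls against 459.5, 493 and 510.3 (-0.20 ± 0.081 SE, adjusted p = 0.232), and with Cox10 floxed at 843, 893 and 855 in controls against 764, 785 and 725 (-0.19 ± 0.062 SE, adjusted p = 0.296). In the last 2 lines all deficient samples lay under all controls.

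No core subunit passed the test in the Tfam or Cox10 line, and the Cox10 interval of Ndufs1 took in its Rptor difference of -0.22. Ndufs1 was at 2177, 1952 and 2351 in Tfam controls and 2377, 2153 and 2279.6 in Tfam-deficient lungs (95% interval of the difference -0.09 to 0.24), and at 3301, 3339.6 and 3279.9 in controls against 3194, 3215 and 2858 in the Cox10 line (-0.23 to 0.03). Ndufs8 was at 1920.2, 1725 and 1872 in controls against 1921, 1863 and 1646 in the Tfam line (-0.19 to 0.14), and at 1568, 1721 and 1577 in controls against 1629, 1486 and 1695 in the Cox10 line (-0.17 to 0.14). For Ndufs8 the Rptor effect minus the Tfam effect was -0.31 ± 0.10 (adjusted p = 0.0657, limma) and minus the Cox10 effect -0.31 ± 0.10 (adjusted p = 0.078, limma), and neither passed. Ndufs1 alone among the core subunits lay below all controls in Cox10-deficient lungs. Ndufv1 held 1763, 1861 and 2133 in controls against 1963, 2123 and 2111 in the Tfam line (-0.056 to 0.28), and 3728, 3621 and 3574 in controls against 3663, 3396 and 3492 in the Cox10 line (-0.16 to 0.059). Ndufv2 held 3317, 3266 and 3661 in controls against 3509, 3229 and 3389 in the Tfam line (-0.15 to 0.12), and 2829.7, 2807 and 2972 in controls against 2742, 2942 and 2992 in the Cox10 line (-0.11 to 0.13). For these subunits of the NADH-oxidising module the groups overlapped in both lines. Ndufs3 ran at 1197, 1312 and 1500.4 in controls against 1329, 1322 and 1409 in the Tfam line (-0.16 to 0.20), and at 1938, 1888 and 1899 in controls against 1933, 1788 and 1996 in the Cox10 line (-0.13 to 0.12). Again the groups overlapped. Ndufs7 differed in being above all controls in Tfam-deficient lungs, at 1506, 1482 and 1593 in controls against 1794, 1644 and 1672, without passing the test (0.16 ± 0.062 SE, adjusted p = 0.213). In the Cox10 line it was at 1222, 1252 and 1273 in controls against 1196, 1218 and 1309 (-0.14 to 0.12).

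The result in the Tfam line rested partly on a single control. The median deviation of the 44 members from the control mean was -0.08, -0.089 and 0.15 in Tfam controls 1, 2 and 3 and 0.067, 0.0097 and 0.088 in the deficient lungs. Control 3 stood above every other sample of the series on this measure, and in it the median deviation of genes under 1000 bases was also the highest of the series, at 0.05. Ndufb3, for example, was at 382, 372 and 644 in controls and 525, 494 and 642 in deficient lungs. Without control 3, 7 members passed, all higher in Tfam-deficient lungs: Ndufa4l2, Ndufa1, Ndufa2, Ndufa6, Ndufa10, Ndufb3 and Ndufb9, and the members' median was 0.14. In that fit 3.46% of all genes rose. The level of short transcripts in this sample moved with that of the members, and its part in the result was not tested. Epithelial markers fell for 6 of 12 genes in the Tfam line, with sums of 31518 to 33054 in controls and 25716 to 28398 in deficient lungs, and for 2 of 12 in the Cox10 line (25179.8 to 25625 and 17416 to 23080.2). Summed leukocyte markers were at 2431 to 2927 in Tfam controls and 2993 to 3249 in Tfam-deficient lungs, and endothelial markers at 33443 to 35438 and 35549 to 37821. Neither sum overlapped, though no single gene of these lists passed. Of 8 cardiac muscle markers, Nppa passed in the Tfam line at 2.29 ± 0.23 (adjusted p = 0.000273, limma) and all 8 had a positive sign, with overlapping sums. In the Cox10 line no mesenchymal, endothelial, leukocyte, erythroid or cardiac muscle marker passed, and their sums overlapped. The part of these markers in the members' differences was not tested.

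**Figure D4:**
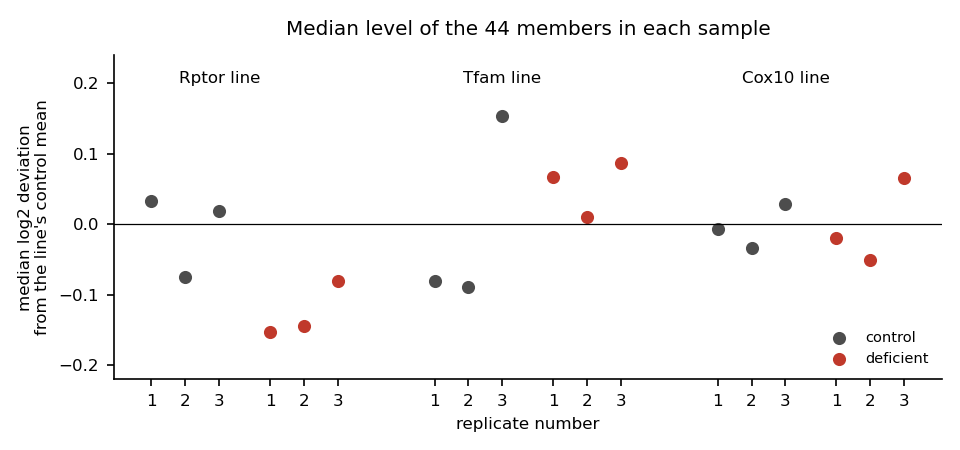
Median log2 deviation of the 44 members from the control mean of their line (y axis) for each of the 18 samples (x axis, replicate numbers within line and group), controls in grey and deficient lungs in red. The 3 Rptor-deficient samples lie between -0.15 and -0.080, below the Rptor controls, of which control 2 is close at -0.075, and Tfam control 3 lies highest at 0.15.

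The effect of Rptor loss was then set against that of Tfam or Cox10 loss in a fit of all 18 samples over 14550 genes. The deficient-minus-control effect was more negative in the Rptor than in the Tfam line for 6 members (6.35% of all genes) and than in the Cox10 line for 4 (4.21% of all genes), and no member had a more positive effect past the threshold, against 4.82% and 3.27% of all genes. Between the Tfam and Cox10 lines no member differed by limma (0.00687% of all genes negative and 0.0481% positive), with 2 members at an unadjusted p under 0.05 (4.56% of all genes). Ndufaf4, Ndufab1 and Ndufa11 differed in both comparisons, which share the Rptor samples. Ndufaf4 was at 719, 725 and 866 in Tfam controls and 742, 752 and 842 in Tfam-deficient lungs, so the groups overlapped, and the Rptor effect minus the Tfam effect was -0.64 ± 0.14 (SE, adjusted p = 0.00984, limma). In the Cox10 line Ndufaf4 was at 858, 1019 and 908 in controls against 921, 928 and 769, and the Rptor effect minus the Cox10 effect was -0.53 ± 0.14 (adjusted p = 0.0321, limma).

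Ndufab1 was at 2094, 2099.9 and 2289 in controls against 2161, 1989 and 2147 in the Tfam line and at 1702, 1839 and 1842 in controls against 1655, 1688 and 1654 in the Cox10 line. Its deficient samples were just under the controls in the Cox10 line and overlapped them in the Tfam line, and the Rptor effect differed by -0.42 ± 0.085 from the Tfam effect (adjusted p = 0.00459, limma) and by -0.36 ± 0.085 from the Cox10 effect (adjusted p = 0.0148, limma). Ndufa11 was at 1577, 1655 and 1759.5 in controls against 1522, 1591 and 1463 in the Tfam line and at 1226, 1296 and 1285 in controls against 1216, 1071 and 1328 in the Cox10 line. The groups overlapped in both lines, and the differences of effect were -0.36 ± 0.10 (adjusted p = 0.0267, limma) and -0.41 ± 0.10 (adjusted p = 0.0174, limma). Ndufb4 was at 999, 807 and 1053 in controls against 992, 950.3 and 1172 in the Cox10 line and at 1328, 1231 and 1307 in controls against 1232, 1163 and 1227 in the Tfam line. Its Rptor effect differed from the Cox10 effect by -0.62 ± 0.13 (adjusted p = 0.0074, limma), and from the Tfam effect by -0.40 ± 0.13, which did not pass (adjusted p = 0.057, limma).

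Ndufs6, Ndufs1 and Ndufa10 differed past the threshold between the Rptor and Tfam lines alone. The Rptor effect minus the Cox10 effect had the same sign without passing. It was -0.27 for Ndufs6 (adjusted p = 0.175, limma), -0.12 for Ndufs1 (adjusted p = 0.465, limma) and -0.12 for Ndufa10 (adjusted p = 0.555, limma). Ndufs6 was at 1392, 1285 and 1597 in Tfam controls and 1562, 1460.2 and 1413 in Tfam-deficient lungs, and at 1253, 1168 and 1234 in controls against 1230.5, 1079 and 1206 in the Cox10 line. The groups overlapped in both lines, and the Rptor effect differed from the Tfam effect by -0.38 ± 0.12 (adjusted p = 0.0424, limma). For Ndufs1 the difference was -0.30 ± 0.091 (adjusted p = 0.0445, limma). Ndufa10, a membrane-arm subunit with a kinase-like fold, did not pass in any line by itself. It was at 2353, 2712 and 2955 in controls against 2316, 2473 and 2517 with Rptor floxed, 3450.2, 3593 and 3955 in controls against 3936, 4565 and 4475 with Tfam floxed, and 2673, 2582 and 2702 in controls against 2711, 2743 and 2473 with Cox10 floxed. The differences were -0.13, 0.24 and -0.0066 in that order, and the Rptor effect minus the Tfam effect was -0.37 ± 0.11 (adjusted p = 0.0413, limma). The count of 6 between the Rptor and Tfam lines was not stable: it was 16 without Tfam control 3, 2 without Tfam control 1 or 2, 3 without Rptor control 2 or 3, Rptor deficient 2, Tfam deficient 2 or Cox10 control 1 or 3, and 13 with the replicate number as a block, a number that pairs the samples in the Rptor line only. The count of 4 between the Rptor and Cox10 lines was 1, Ndufb4, without Cox10 control 1, and 2, Ndufb4 and Ndufab1, without Rptor control 2.

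Ndufa4 and Ndufa4l2 bear complex I names but belong elsewhere. Ndufa4 is now known as a subunit of complex IV, and Ndufa4l2 is its hypoxia-inducible paralogue. Ndufa4 was at 4383, 4313 and 4509 in Rptor controls and 3446, 3588 and 3999 in deficient lungs, a fall of 16.6% (-0.26 ± 0.064 SE, adjusted p = 0.0144). It was at 2871, 2775 and 3789 in controls against 3292, 3071 and 3468 in the Tfam line, where control 3 again stood above the other controls, and at 3787, 3674 and 3946 in controls against 3615, 3628 and 3943 in the Cox10 line. Neither difference passed (95% intervals -0.16 to 0.30 and -0.15 to 0.095).

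Ndufa4l2 was the only member higher in deficient lungs, without overlap, in each of the 3 lines. In the Rptor line it was at 214, 247 and 170.1 in controls and 312, 319.9 and 426 in deficient lungs (0.74 ± 0.17 SE, adjusted p = 0.011). In the Tfam line it was at 308, 331 and 305 in controls against 400.0, 412 and 438 (0.40 ± 0.085 SE, adjusted p = 0.0214). In the Cox10 line it was at 52.6, 52.4 and 53 in controls against 77.8, 58.3 and 229, and the spread of the deficient samples left it short of the threshold (0.93 ± 0.45 SE, adjusted p = 0.421). Cox10 deficient 3, by far the highest of its group, stood apart in several marker sums. Its endothelial markers were the highest of that line, at 37235 against 25608 and 23433 in the other deficient samples. So were its mesenchymal markers, at 276599, and its leukocyte markers, at 2617. Its epithelial markers were the highest of the deficient group, at 23080.2, and its erythroid markers the lowest of the line, at 25955. The part of these markers in the level of Ndufa4l2 was not tested. Without that sample the difference was 0.35 (adjusted p = 0.449, limma). Pdgfrb, a marker of pericytes and other mesenchymal cells, was picked from the 10 mesenchymal markers after its values were seen. It differed by 0.36 ± 0.055 after loss of Rptor (adjusted p = 0.00169, limma). It did not pass after loss of Tfam, at 0.15 ± 0.06 (adjusted p = 0.238, limma), or of Cox10, at 0.22 ± 0.061 (adjusted p = 0.221, limma). Of the 10 markers, 1 had a negative difference for Rptor, 3 for Tfam and 0 for Cox10. A link between Pdgfrb and Ndufa4l2 was not tested. In the Tfam line the call of Ndufa4l2 was lost without control 1, deficient 2 or deficient 3, and in the fit of all 18 samples together neither the Tfam nor the Rptor difference passed (adjusted p = 0.602 and 0.0679).

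**Figure D5:**
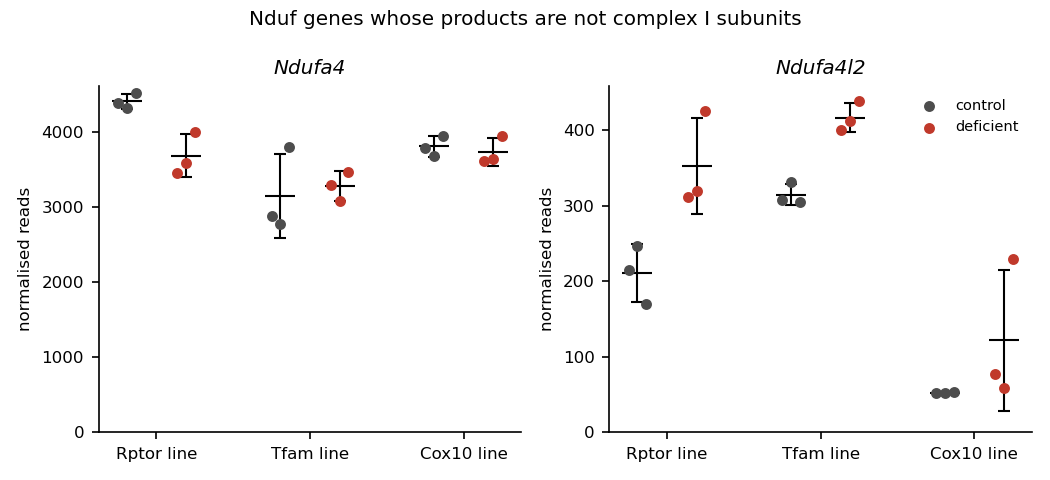
Normalised reads (y axis, from 0) of Ndufa4 and Ndufa4l2 in each sample of the 3 lines, controls in grey and deficient lungs in red, with black bars for the mean ± SD of 3 samples. Ndufa4l2 is higher in every deficient sample than in every control of its own line, and its Cox10 controls lie together near 53 normalised reads.

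The tables were scaled separately, so levels set across them are descriptive. Tfam controls lay below Rptor controls without overlap for 23 of the 44 members and above them for 8, against 36.7% and 26.2% of all 14550 genes. Cox10 controls lay below Rptor controls for 11 members and above for 1, against 22.2% and 21.2% of all genes, and overlapped for 32. Ndufb3 averaged 466 normalised reads in Tfam controls and 1225 in Rptor controls, a ratio of 0.38, and Ndufa4l2 averaged 315, 210.4 and 52.7 in Tfam, Rptor and Cox10 controls. Within groups the members were tight, with a median coefficient of variation of 7.43% in Rptor controls, 10.6% in Tfam controls and 4.13% in Cox10 controls. The median half-width of a member's 95% interval was 0.18, 0.19 and 0.16 for the Rptor, Tfam and Cox10 lines.

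The 11 members that fell in the Rptor line lay on 9 chromosomes (GRCm38, GENCODE M21). Their median transcript length was 651 bases, against 838 bases for the other 33 members and 2191 bases for all tested genes with a length. A gene's length here is the median over its annotated coding transcripts. The 651 bases are the value of Ndufs1, a gene with 21 exon blocks. A difference in length between the 11 and the other members was not tested. Across the 44 members, length and difference were hardly related, with a Spearman coefficient of -0.037 in the Rptor line, a description over genes that share libraries. Genes on the opposite strand overlap 17 members, 4 of them among the 11, including 70 bases of Vmac within Ndufa11. Other gene models on the same strand, annotated as protein-coding, overlap Ndufb2, Ndufb8 and Ndufb9, so reads of Ndufb8 may have been split or lost there. Whether the counting used strand is not given in the sources used here.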

How the data were processed

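RNA of whole lungs of 14.5 dpc embryos was sequenced in 18 samples. The submitters' processing notes name Trim Galore, HISAT2, featureCounts, DESeq2 and mm10, without roles or versions. The authors deposited a table per line of normalised reads per gene, a signal of gene counts divided by a size factor, so that tables were scaled separately. The deposited tables also hold the authors' log2 fold changes, p-values and adjusted p-values, which were not used.

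Groups followed the labels. Genes that reached a value of 10 in 3 or more of a line's 6 samples were tested per line with limma 3.58.1 in R 4.3.3 (log2(value + 1), trended empirical Bayes variance, two-sided, Benjamini-Hochberg adjustment over all genes tested). Effects were compared between lines in a fit of 6 groups. The scripts were tested on simulated data. Same-numbered samples of the Rptor line deviated together (correlations 0.22, 0.33 and 0.26, over all tested genes), so the blocked fit was also run. Alternatives were other scalings, filters and pseudocounts, GC content and length correction, Xist as a covariate, a joint fit and leaving out each sample. In the Cox10 line the lowest difference of all genes tested was that of the Y-linked Kdm5d, at -3.59. The sexes may therefore be unevenly spread over its groups. Ndufa1 and Ndufb11 lie on the X chromosome.

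The values of 1 core subunit are not reported here, although it enters all counts and sums. Values by sample are given for the other core subunits, the 5 largest falls and rises per line among members past the threshold without overlap, Ndufaf factors past it, Ndufa4, Ndufa4l2 and the 5 largest differences between lines. Ndufb3, Ndufaf2, Nppa, Pdgfrb and the other genes named beside them were picked after their values were seen. The members, lists and motifs were chosen with earlier results of these data known. Promoter windows came from RefSeq (GRCm38.p6) and gene positions from GENCODE M21 (GRCm38).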

Additional observations from a re-analysis of the deposited data

Results flagged for a closer look

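The effect of the deletion differed between lines by limma's interaction contrast, an adjusted p under 0.05 over 14550 genes, for 10 pairs of member and comparison. As the Rptor effect minus the Tfam effect, the log2 differences were -0.64 for Ndufaf4 (95% interval -0.95 to -0.34), -0.42 for Ndufab1 (-0.60 to -0.25), -0.38 for Ndufs6 (-0.63 to -0.14), -0.37 for Ndufa10 (-0.60 to -0.13), -0.36 for Ndufa11 (-0.58 to -0.15) and -0.30 for Ndufs1 (-0.49 to -0.10). As the Rptor effect minus the Cox10 effect, they were -0.62 for Ndufb4 (-0.90 to -0.34), -0.53 for Ndufaf4 (-0.84 to -0.23), -0.41 for Ndufa11 (-0.62 to -0.20) and -0.36 for Ndufab1 (-0.54 to -0.18). All 10 were negative. Ndufab1 and Ndufaf4 against the Tfam line and Ndufb4 against the Cox10 line passed without any of the 18 samples in turn. Against the Tfam line, Ndufs1 passed in 5 of these 18 fits, Ndufs6 in 7, Ndufa10 in 8 and Ndufa11 in 14. Against the Cox10 line, Ndufaf4 passed in 11, Ndufa11 in 16 and Ndufab1 in 17. Groups of 3 samples were not tested for outlying samples.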

How the results depend on the processing

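In the Rptor line the count of 12 members past the threshold was 12 to 14 under the 10 other settings tried, and every member that fell kept its direction and its call in each of them. When all 18 samples shared a fit, Ndufa4l2 missed the threshold, and Ndufa8, Ndufaf2 and Ndufv2 passed as lower. Leaving out a sample gave 7 to 13 members. With the replicate block, whose numbers pair the samples in this line, the count was 13 and no call was lost. In the Tfam line the count of 1 became 0 in the fit of all samples and 2 with the replicate block (Ndufa10 was added), alone or with GC content and length trends removed, and 0 to 7 without a sample. In the Cox10 line it was 0 under every setting and without any sample. The 6 members that differed between the Rptor and Tfam lines became 13 with the replicate block and 3 with Xist as a covariate. Without a sample they were 2 to 16. Ndufs1 and Ndufs6 missed the threshold with no filter on low values, with GC content and length trends removed (blocked or not) and with Xist. With Xist, Ndufa10 missed it too. The 4 between the Rptor and Cox10 lines stayed at 4 under the other settings and were 1 to 5 without a sample, and the 0 between the Tfam and Cox10 lines stayed at 0. No difference that passed the test changed sign. The median over members, which has no test, changed from 0.042 to -0.0021 in the Tfam line without control 2, and in the Cox10 line from -0.0051 to 0.0050 with totals made equal, 0.0053 without control 3 and 0.0012 without deficient 2. The replicate numbers do not pair the Tfam and Cox10 samples: correlations of same-numbered deviations were -0.31, -0.21 and 0.15 in the Tfam line and 0.45, 0.20 and 0.049 in the Cox10 line, and 1 of 3 numbers in each matched its own best. The cause of these changes was not tested. Scaling moved the median of all genes by less than 0.1 in every line. The deposited values are whole multiples of a step per sample (100% of values above 0 within 0.01 of a multiple, in all 18 samples), so read counts can be had from them. The planned count tests on such reads were not run. With 3 samples a group and a median SE of 0.078, 0.085 and 0.068 per member in the Rptor, Tfam and Cox10 lines, differences of the size most members showed could not be told from 0.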
